A study of Homo sapiens with 4 samples.

Results

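The 10 genes described here are grouped as a readout of bone morphogenetic protein (BMP) signalling. They are the inhibitor-of-DNA-binding genes ID1, ID2, ID3 and ID4, the SMAD genes SMAD6, SMAD7 and SMAD9, and the decoy receptor gene BAMBI. The group also holds the ligand genes BMP4 and BMP7, which are inputs of the pathway. The genes were taken by gene symbol, and all 10 were found among the 33538 annotated genes of each matrix. Their level, the share of cells in which they were detected, their co-expression across cells and their change against 0 h were followed in 2 cancer cell lines given estrogen.

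BMP ligands bind paired receptor kinases at the cell surface, which phosphorylate SMAD1, SMAD5 and SMAD9, and these enter the nucleus with SMAD4 and bind target genes. The ID genes are the textbook targets of the pathway, and their proteins hold basic helix-loop-helix factors such as the E proteins away from DNA. SMAD6, SMAD7 and BAMBI are induced by the same signals and block them, so their transcripts are also used as signs of pathway activity. That activity was not measured here.

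Pooled scRNA-seq was performed in Ishikawa, an endometrial adenocarcinoma line, and T-47D, a luminal breast carcinoma line, both of which express estrogen receptor alpha (ESR1). Cells had been kept in hormone-depleted medium, and the cultures then received 17beta-estradiol (E2, 10 nM) for 2, 4 or 8 h, or DMSO vehicle (0 h). Before mixing, each culture was marked with a MULTI-seq membrane barcode, and all 4 cultures of a line then entered a single droplet library, so that each line and time point was 1 culture and line and library cannot be told apart. With 1 culture per condition no test of a difference was possible, and every 95% interval given here is exact and covers counting error only. The intervals of CPM and of ratios leave out the variation between cells that is described below. They are therefore too narrow for genes spread unevenly over cells.

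After cell filters, 776, 1480, 892 and 1465 Ishikawa cells and 1525, 1207, 1341 and 553 T-47D cells remained at 0, 2, 4 and 8 h. Their unique molecular identifiers (UMIs, 1 per captured transcript) were summed to 8 pools of 12927799 to 33175309 UMIs and expressed as counts per 1000000 UMIs of the pool (CPM). The filters kept 38.2% of the Ishikawa cells tagged as 0 h and 52.4% to 55.8% of those tagged as 2, 4 or 8 h. This 0-h pool is the reference of every Ishikawa change. In T-47D they kept 100% of the tagged cells at each time, so pools without the filters would hold the same cells. The epithelial genes EPCAM, KRT8, KRT18, KRT19 and CDH1 and the receptor ESR1 were present in both lines at 25.8 CPM or more in every pool. PAX8, a Muellerian duct factor, stood at 94.2 CPM or more in Ishikawa and at 0 UMIs in T-47D, and the luminal factor GATA3 stood at 444 CPM or more in T-47D and at 1 UMI in all Ishikawa pools together. The libraries shared 80 barcodes, 12 of them assigned to a time point in both.

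The promoters of a few of these genes are shown for the sequence they share. SMAD proteins contact the short motif GTCT, which reads AGAC on the other strand, and BMP-responsive sites also hold GC-rich elements such as GGCGCC. The windows below are the 250 bases before the annotated start (RefSeq, GRCh38.p14), 5′ to 3′ on the strand of the gene, with GTCT, AGAC and GGCGCC in capitals. ID1 and ID3 are shown because ID3 was the gene most alike to ID1 across cells in both lines, BAMBI as one of the 2 genes called lower at every time in T-47D, and SMAD6 for its paired motif. They lie at chr20:31605039-31605288 (plus strand, ID1), chr1:23559502-23559751 (minus strand, ID3), chr10:28677271-28677520 (plus strand, BAMBI) and chr15:66701986-66702235 (plus strand, SMAD6).
ID1: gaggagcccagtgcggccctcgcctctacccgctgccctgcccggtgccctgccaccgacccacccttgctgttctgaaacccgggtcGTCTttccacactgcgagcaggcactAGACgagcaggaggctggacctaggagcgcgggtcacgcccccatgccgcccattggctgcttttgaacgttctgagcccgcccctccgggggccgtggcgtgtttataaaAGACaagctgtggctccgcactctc
ID3: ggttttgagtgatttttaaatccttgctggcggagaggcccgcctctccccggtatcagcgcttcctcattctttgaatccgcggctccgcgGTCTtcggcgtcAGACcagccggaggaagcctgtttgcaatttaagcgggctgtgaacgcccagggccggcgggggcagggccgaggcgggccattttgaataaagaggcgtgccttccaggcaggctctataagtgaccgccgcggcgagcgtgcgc
BAMBI: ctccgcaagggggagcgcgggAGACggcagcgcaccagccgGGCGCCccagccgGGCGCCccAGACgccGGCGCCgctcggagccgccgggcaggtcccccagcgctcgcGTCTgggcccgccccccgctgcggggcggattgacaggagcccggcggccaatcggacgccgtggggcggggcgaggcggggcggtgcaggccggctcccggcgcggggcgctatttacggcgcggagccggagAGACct
SMAD6: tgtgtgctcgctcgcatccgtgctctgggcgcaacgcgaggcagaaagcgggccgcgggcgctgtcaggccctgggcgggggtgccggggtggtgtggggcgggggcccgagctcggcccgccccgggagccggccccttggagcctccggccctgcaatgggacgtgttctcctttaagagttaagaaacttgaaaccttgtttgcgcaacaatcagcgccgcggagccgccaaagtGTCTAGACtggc

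GTCT was found on either strand in a window of each of the 9 genes that have an entry, and in 77.5% of all 35116 windows of the table, so that it sets none of them apart. SMAD6 held GTCT directly followed by AGAC 12 bases before its start, an 8-base palindrome present in 64 windows (0.182%). GGCGCC occurred 3 times in the BAMBI window and 1 time in a window of BMP4, against 16.4% of all windows. TGACCT, the reverse complement of the estrogen receptor's AGGTCA motif, was found in a window of SMAD7 (12.1% of all windows), and CACGTG, the E-box letters, in windows of SMAD9 and BMP4 (6.34%). These matches describe letters in a window and are not binding sites, and BMP7 had no entry.

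Before E2, the lines differed widely in which of these genes they expressed. ID1 was 5.08-fold higher in Ishikawa than in T-47D (673 against 133 CPM, interval of the ratio 4.90 to 5.26). ID4 was 41.6-fold higher in Ishikawa (86.6 against 2.08 CPM, interval 32.7 to 53.8). SMAD6, SMAD7 and SMAD9 were also higher there, by 5.66-fold, 4.88-fold and 8.33-fold, at 9.54 to 11.4 CPM in Ishikawa and 1.15 to 2.14 CPM in T-47D.

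The ligands and the decoy receptor had the opposite distribution. BAMBI, a receptor-like protein without a kinase domain, was 316-fold higher in T-47D (186 against 0.588 CPM, interval 167 to 692), resting on 9 UMIs in Ishikawa. BMP4 was 12.2-fold higher in T-47D (24.6 against 2.03 CPM, interval 8.50 to 18.0). BMP7 gave 103 UMIs in T-47D, 3.105 CPM, and 0 UMIs in Ishikawa, where 3 UMIs, taken as the limit that a count of 0 allows, would be 0.196 CPM. Only ID2 and ID3 were at levels within 1.5-fold in both lines, ID2 at 17.8 and 21.3 CPM and ID3 at 189.6 and 279.6 CPM in Ishikawa and T-47D.

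**Figure D1:**
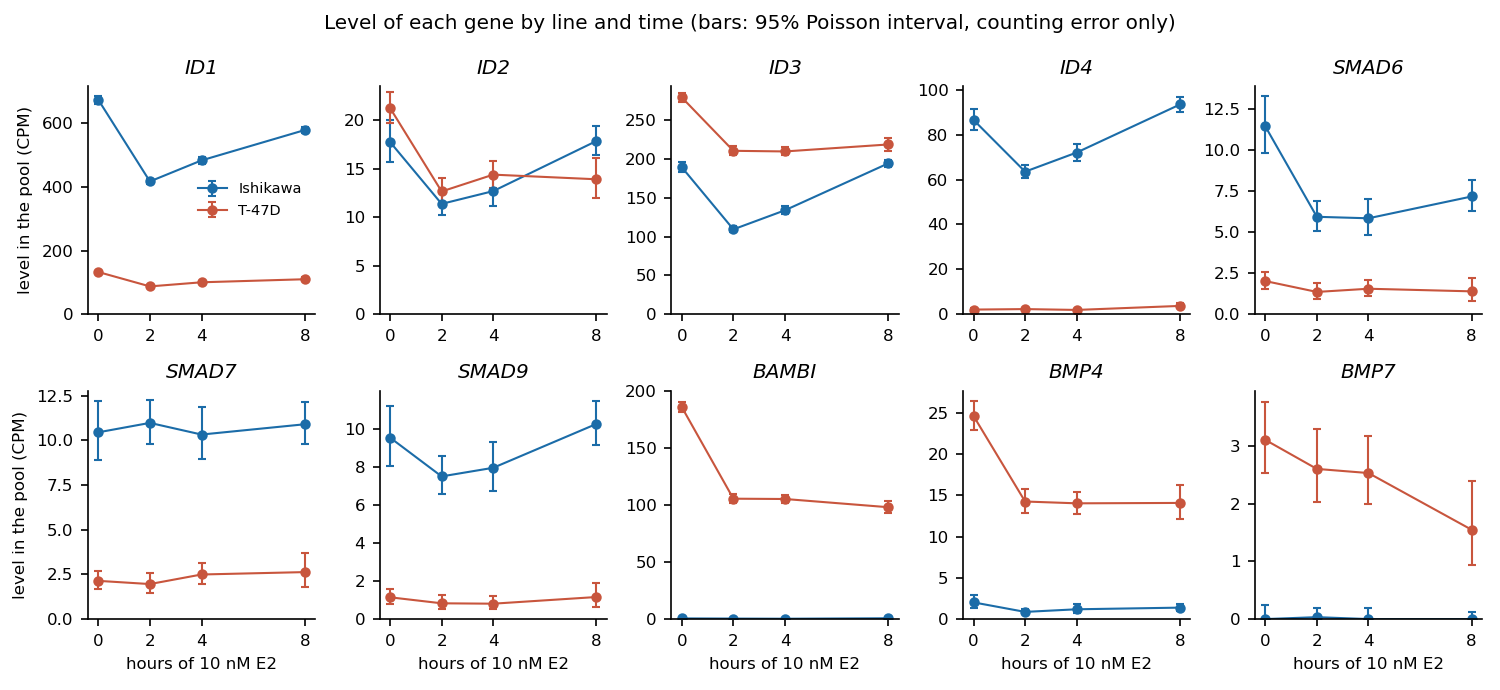
Level of each of the 10 genes in CPM (vertical axis, from 0, scaled per gene) against hours of 10 nM E2 in Ishikawa (blue) and T-47D (red); points are pools of cells, bars the 95% Poisson interval. In Ishikawa ID1, ID3 and ID4 are lowest at 2 h, and by 8 h ID3 and ID4 are at or above their 0-h level and ID1 is still below it, whereas BAMBI and BMP4 in T-47D fall by 2 h and remain there.

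A gene was called changed when its mean over the 4 pools of its line reached 10 CPM and its level on the log2(CPM + 1) scale moved by at least 1.5-fold against 0 h. Of the 10 genes, 5 passed the minimum in each line: ID1, ID2, ID3, ID4 and SMAD7 in Ishikawa, and ID1, ID2, ID3, BAMBI and BMP4 in T-47D.

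In Ishikawa, ID1, ID2 and ID3 were lower 2 h after E2 was given, and none of the 5 genes was past the limit later. At 2 h, 3 of the 5 genes were thus called lower and 0 were called higher, against 0.659% of 7885 genes lower and 0.786% higher. By 4 h, 0 of the 5 were called in either direction, against 0.621% of all genes lower and 0.634% higher, and the same held for 8 h, against 0.469% and 0.812%. None was lower at all 3 times, as 0.0761% of genes were. The median log2 change of the 5 genes was -0.60 at 2 h, -0.45 at 4 h and 0.04 at 8 h, and the median of all genes stayed within 0.02 of 0.

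ID1 stood at 673, 417, 483 and 578 CPM at 0, 2, 4 and 8 h in Ishikawa. The level was lowest at 2 h and rose at each later time, without reaching that of 0 h. The ratio to 0 h was 0.619 at 2 h (interval 0.603 to 0.636), 0.717 at 4 h and 0.859 at 8 h (interval 0.838 to 0.880).

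ID3 stood at 189.6, 109.5, 134 and 195 CPM. Its drop at 2 h, -0.79 on the log2 scale, was the deepest of the called genes, and its 8-h level was that of 0 h within counting error (ratio 1.03, interval 0.981 to 1.07). ID2 followed the same course at a low level, with 17.8, 11.4, 12.7 and 17.9 CPM from 246 to 554 UMIs per pool. Its call at 2 h (-0.60) lay just past the limit and was lost under 6 of 12 alternative settings.

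ID4 moved in the same direction without passing the limit, at 86.6, 63.5, 72.0 and 93.4 CPM. Its ratio to 0 h was 0.734 at 2 h (interval 0.684 to 0.788) and 1.08 at 8 h (interval 1.01 to 1.15). SMAD7, which blocks receptor-activated SMADs, stayed between 10.3 and 11.0 CPM at all 4 times, and each of its intervals against 0 h included 1.

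The recovery can be read without the 0-h pool. Between 2 and 8 h, levels rose 1.78-fold for ID3, 1.57-fold for ID2 (1.37 to 1.80), 1.47-fold for ID4 (1.39 to 1.56) and 1.39-fold for ID1 (1.36 to 1.42), a comparison chosen after the data were seen. SMAD7 did not move beyond counting error over this span (ratio 0.993, interval 0.850 to 1.16).

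When every Ishikawa cell assigned to a time point was used without the filters, the 2-h changes were -0.56 for ID1, -0.53 for ID2 and -0.68 for ID3, so that only ID3 remained called. The unfiltered 0-h cells were shallower than those of 2 h (medians of 10483.5 and 16193 UMIs) and had more mitochondrial UMIs (7.29% and 4.95%), and the part of this in the result was not tested.

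Among the genes under the minimum in Ishikawa, SMAD6, the inhibitory SMAD that is a direct BMP target, gave 175, 177, 113 and 222 UMIs, or 11.4, 5.93, 5.84 and 7.16 CPM. All 3 later pools lay below that of 0 h, with ratios of 0.518 (interval 0.418 to 0.642), 0.510 (0.399 to 0.650) and 0.626 (0.512 to 0.768). SMAD9, a receptor-activated SMAD that is itself induced by BMP, stood at 9.54, 7.50, 7.95 and 10.3 CPM, with an interval under 1 at 2 h alone (0.635 to 0.975). BMP4 gave 23 to 43 UMIs per pool, BAMBI 6 to 22 and BMP7 1 UMI in all.

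In T-47D, BAMBI and BMP4 were lower at all 3 times after E2, and ID1 and ID2 at 2 h. At 2 h, 4 of the 5 genes past the minimum were called lower, ID1, ID2, BAMBI and BMP4, against 0.417% of 7440 genes, and 0 were called higher, against 1.22%. At 4 h and at 8 h, 2 of 5 were called lower, BAMBI and BMP4 both times, against 0.363% and 0.726%, and 0 higher, against 1.33% and 2.34%. ID2 at 8 h lay just short of the limit (-0.58, ratio 0.654) and was called lower under 5 of 10 alternative settings. All 5 had ratio intervals under 1 at all 3 times. The share of all genes with such intervals is not given here, so this count does not set the 5 apart. Their median log2 change was -0.71, -0.53 and -0.58, beside 0.01 or less in size for all genes.

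BAMBI stood at 186, 105.6, 105.4 and 98.2 CPM in T-47D. The 3 E2 pools lay close together and well below the vehicle pool, with ratios of 0.568 (interval 0.543 to 0.594), 0.566 (0.542 to 0.591) and 0.528 (0.496 to 0.561). BMP4 had the same shape at a lower level, 24.6, 14.3, 14.0 and 14.1 CPM from 182 to 817 UMIs, with ratios of 0.579, 0.570 and 0.572. Both genes belonged to the 10 of 7440 genes (0.134%) that were called lower at all 3 times.

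ID1 in T-47D stood at 133, 87.4, 100.3 and 109.9 CPM, lowest at 2 h and partly restored at 8 h (ratio 0.659, interval 0.627 to 0.693, and 0.829, interval 0.780 to 0.880). ID2 stood at 21.3, 12.7, 14.4 and 13.9 CPM, and its 3 E2 pools did not differ from each other beyond counting error. ID3 stood at 279.6, 211, 209.9 and 219 CPM, a drop that stayed under the limit (-0.41, -0.41 and -0.35 on the log2 scale).

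From 2 to 8 h, ID1 rose 1.26-fold in T-47D (interval 1.18 to 1.34), BAMBI moved by a factor of 0.929 (0.869 to 0.993), BMP4 by 0.988 (0.823 to 1.18), ID2 by 1.10 (0.912 to 1.32) and ID3 by 1.04 (0.993 to 1.09). The ratio of 8 to 2 h was larger in Ishikawa than in T-47D for ID1, ID2 and ID3. The values were 1.39 against 1.26, 1.57 against 1.10 and 1.78 against 1.04, with counting intervals that did not overlap. The share of all genes with such intervals is not given here. This difference between lines was not tested, with 1 culture each.

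The T-47D genes under the minimum were ID4 (48 to 69 UMIs per pool), SMAD6 (18 to 67), SMAD7 (34 to 74), SMAD9 (15 to 38) and BMP7 (20 to 103). BMP7 was at 3.105, 2.60, 2.53 and 1.55 CPM, with an interval under 1 at 8 h alone (0.292 to 0.810). ID4 was at 2.08, 2.30, 1.92 and 3.71 CPM, with an interval above 1 at 8 h (1.21 to 2.62).

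**Figure D2:**
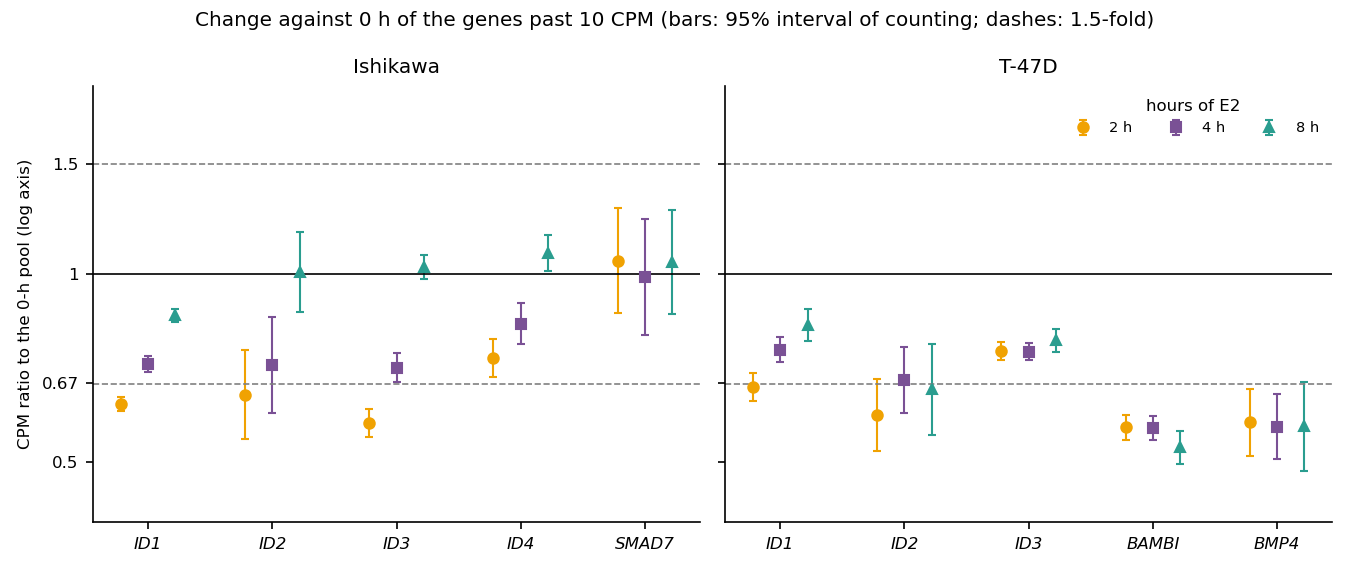
Ratio of the CPM at 2, 4 and 8 h to that at 0 h (log axis) for the genes past 10 CPM in each line, with the exact 95% interval; dashed lines mark 1.5-fold. In Ishikawa the ID genes sit lowest at 2 h and between 0.859 (ID1) and 1.08 (ID4) at 8 h, and in T-47D BAMBI and BMP4 stay between 0.528 and 0.579 at all 3 times.

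The same changes were visible in the share of cells with at least 1 UMI, compared after the cells were drawn down to a common depth, 12539 UMIs for Ishikawa and 14495 for T-47D. In Ishikawa, ID3 was detected in 52.7%, 37.8%, 45.9% and 48.7% of thinned cells at 0, 2, 4 and 8 h, and ID1 in 94.5%, 86.7%, 88.4% and 91.1%. SMAD6 went from 14.1% of cells at 0 h (interval 11.5% to 16.9%) to 6.82% at 2 h (5.51% to 8.33%), 6.71% and 8.08%. In T-47D, BAMBI was detected in 79.7%, 64.3%, 61.8% and 59.9% of cells, BMP4 in 26.7%, 16.1%, 17.9% and 16.8%, and ID1 in 57.6%, 44.0%, 52.1% and 57.0%. The blood and vessel genes PTPRC, CD3E, LYZ, HBB, PECAM1 and CDH5, which neither line should express, were detected in 0.148% of thinned cells or fewer in any Ishikawa pool and in 0.301% or fewer in any T-47D pool, at the depth of the line. In Ishikawa, BAMBI was detected in 0.359% to 0.898% of thinned cells, from 3 to 12 cells per pool. Without thinning, ID3 was detected in 58.6%, 44.9%, 54.0% and 58.1% of Ishikawa cells and BAMBI in 85.0%, 72.6%, 71.6% and 68.5% of T-47D cells, with median depths of 19121.5 to 21435.5 and 20677 to 22576 UMIs per cell.

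ID genes were spread unevenly over cells of 1 culture. In thinned Ishikawa cells at 0 h, ID3 had a mean of 2.44 UMIs, a median of 1 and a highest value of 51, and the top 10% of cells held 58.6% of its UMIs. Its variance over mean (Fano factor) was 10.1, higher than that of 655 of the other 656 genes within 1.5-fold of its level, whose median was 1.32. ID1 had a Fano factor of 7.67 (above 140 of 150 such genes), ID4 2.85 (above 1293 of 1320) and ID2 2.23 (above 2783 of 2796), whereas SMAD7 had 1.05, within the middle of its peers (above 1267 of 2695).

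At 2 h the median of ID3 in Ishikawa went from 1 to 0 UMIs and the 90th percentile from 7 to 4, and cells with 10 or more UMIs went from 6.21% to 3.30% and came to 6.89% at 8 h. The highest cell was at 53 UMIs at 2 h, and the top 10% of cells then held 68.2% of the UMIs. ID1 cells with 10 or more UMIs made up 32.4%, 15.7%, 21.0% and 25.4% of the 4 pools. For T-47D, the Fano factors at 0 h were 4.09 for ID3, 3.93 for ID1, 2.68 for BAMBI, 1.66 for ID2 and 1.39 for BMP4, each above more than 96% of the genes of like level.

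Across cells, ID1 and ID3 went together in both lines. Spearman's rho between them was 0.39, 0.36, 0.36 and 0.42 at 0, 2, 4 and 8 h in Ishikawa (676 thinned cells per time) and 0.47, 0.44, 0.40 and 0.38 in T-47D (519 cells per time). The cells of a pool share a culture, a library and, after thinning, a depth, and these values are descriptions without a test. Among 2749 Ishikawa and 2656 T-47D genes at 50 CPM or more at 0 h, ID3 was the gene most alike to ID1 at all 4 times in both lines, and the median rho of ID1 with all of these genes was 0.001 to 0.017.

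In Ishikawa, ID4 had rho of 0.31, 0.28, 0.25 and 0.29 with ID1 and 0.35, 0.36, 0.31 and 0.32 with ID3. In the 676 cells drawn at 2 h the value of ID3 with ID4 was equal, to 3 decimals, to that of ID3 with ID1 (0.363). In all 1305 thinned 2-h cells these values were 0.29 and 0.37, so the equality belongs to that draw. ID2 had rho of 0.32, 0.27, 0.11 and 0.22 with ID3 and 0.21, 0.17, 0.11 and 0.17 with ID1. The genes next most alike to ID1 at 0 h were ID4 and TPM1 (a tropomyosin). Those of ID3 were ID1, ID4 and ANKRD1 (a target of YAP), and those of ID4 were ID3, ID1 and TES. ANKRD1 had rho of 0.34, 0.37, 0.32 and 0.35 with ID3. In the cells drawn at 2 h ANKRD1 ranked above ID4 and ID1 (0.367 against 0.363), an order not examined in all thinned cells. TES ranked 431, 383 and 46 for ID4 at 2, 4 and 8 h. In the 320 thinned 0-h cells without an ID3 UMI, 35.9% had an ID4 UMI and 6.56% an ID2 UMI, against 60.7% and 22.8% of the 356 cells with one. SMAD7, detected in 12.2% to 13.2% of thinned cells, had rho of -0.06 to 0.13 with the ID genes. Its rho with ID1 was above 99.7%, 96.1%, 97.7% and 95.7% of its rho with the 2749 genes at 0, 2, 4 and 8 h. That with ID2 was above 68.3%, 25.3%, 9.57% and 79.6%.

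In T-47D, ID1 was detected in 62.9% of the 434 thinned 0-h cells with an ID3 UMI and in 24.7% of the 85 cells without (interval 16.0% to 35.2%). ID2 had rho of 0.17 to 0.22 with ID1. BAMBI had weak negative rho with ID1 and ID3, at -0.09, -0.18, -0.08 and -0.19 with ID1 and -0.06 to -0.14 with ID3. With ID2 it was nearer to 0, at -0.07, -0.01, -0.04 and -0.01. In all thinned cells of a pool, not only the 519 drawn, rho of BAMBI with ID1 was -0.08, -0.12, -0.07 and -0.19. Of the rho of BAMBI with the 2656 genes in the drawn cells, 3.95%, 0%, 8.29% and 0% were lower than that with ID1 at 0, 2, 4 and 8 h. It was detected in 76.5% of 0-h cells with an ID1 UMI and 84.0% of those without. The genes most alike to BAMBI at 0 h were IGFBP5, an insulin-like growth factor binding protein (rho 0.26), FBXO32, a ubiquitin ligase subunit (0.26), and REEP5 (0.25). After ID3, those of ID1 were UPK3B and CYB5A (0.21 and 0.20). At 2, 4 and 8 h, IGFBP5 ranked 2, 2 and 62 for BAMBI. For ID1, UPK3B ranked 71, 6 and 3 and CYB5A 180, 647 and 1297. ID3 stood next to ANXA2 and SOD3 after ID1 (0.34 and 0.32). BMP4 had rho of -0.04 to 0.09 with the other 4 genes.

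**Figure D3:**
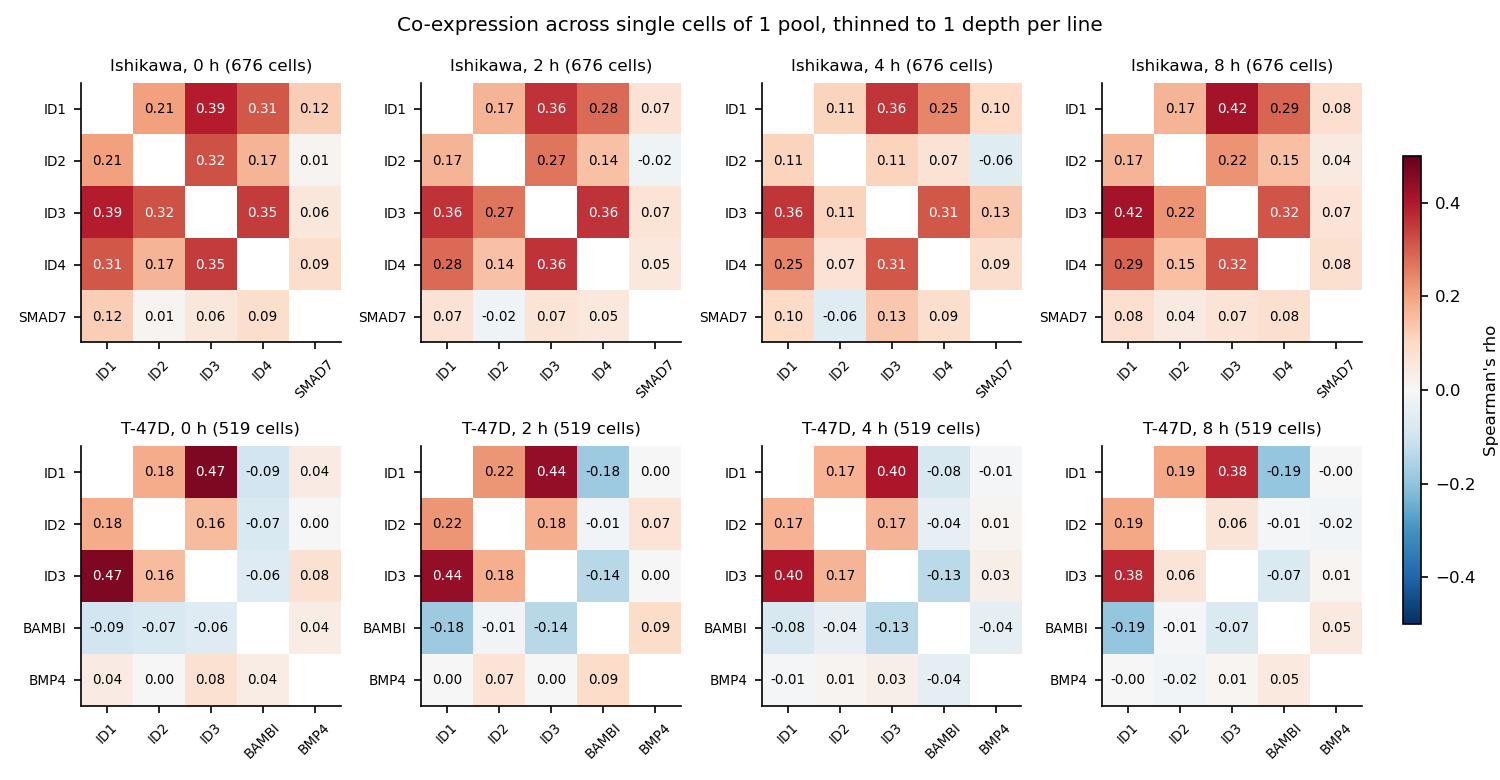
Spearman's rho between the genes past 10 CPM across thinned cells of 1 pool, for 4 time points (columns) of Ishikawa (top, 676 cells) and T-47D (bottom, 519 cells); red is positive, blue negative. In Ishikawa the pairs among ID1, ID3 and ID4 lie between 0.25 and 0.42 at every time, and in T-47D the ID1 and ID3 square is the strongest and the BAMBI row is pale or blue.

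Ishikawa cells also carried transcripts of a GFP reporter that took 3.17% to 4.67% of the UMIs of a pool, and the ID genes differed with it. A GFP UMI was found in 100% of kept Ishikawa cells. Cells were set apart by whether GFP made up at least 1% of their UMIs, and those that did are called cells with GFP here. This held for 42.5%, 36.4%, 39.3% and 38.5% of cells at 0, 2, 4 and 8 h. Levels were recomputed without the reporters in the total. ID3 stood at 304, 168, 205 and 302 CPM in the cells with GFP and at 134, 85.8, 103 and 152 CPM in the others. The ratio was 2.27 at 0 h (interval 2.11 to 2.45), and it was 1.99 at 4 and 8 h with intervals of 1.84 to 2.15 and 1.89 to 2.09. ID2 was 1.94-fold to 2.21-fold and ID4 1.59-fold to 1.77-fold higher in the cells with GFP, whereas ID1 was 1.13-fold to 1.17-fold higher.

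At 0 h, 3 of the 5 genes, ID2, ID3 and ID4, were at least 1.5-fold higher in the cells with GFP, against 5.91% of 7885 genes, and the same 3 were so at 2, 4 and 8 h, against 3.42%, 4.41% and 4.79%. The deposited labels do not say what the reporter marks. The change at 2 h was present in both classes. With the reporters kept in the total, it was -0.81 for ID3 and -0.66 for ID1 on the log2 scale in cells with GFP and -0.63 and -0.71 in the others. ID1 and ID3 also went together within each class at 0 h (rho 0.39 in 281 thinned cells at 1% GFP or more and 0.43 in 395 cells under 1%).

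**Figure D4:**
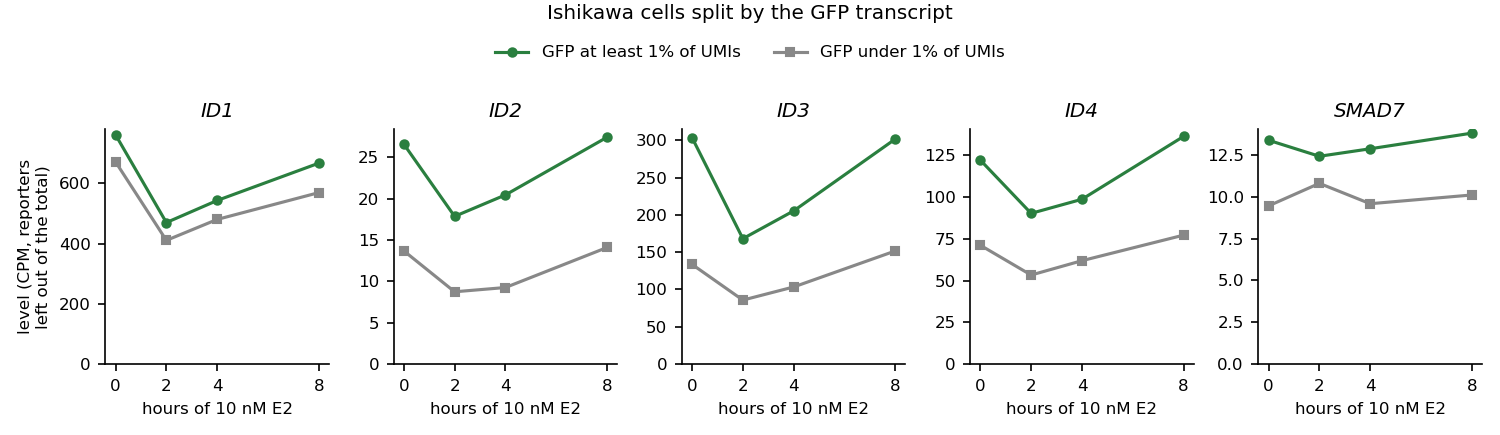
Level in CPM (reporters left out of the total) of the 5 genes past the minimum in Ishikawa cells with GFP at 1% or more of their UMIs (green) and in the other cells (grey), by hours of 10 nM E2. ID2, ID3 and ID4 lie higher in the cells with GFP at all 4 times, and in both classes ID1 and ID3 are lower at 2 h than at 0 h.

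Cells with and without a UMI of the proliferation genes TOP2A or MKI67 showed the same direction. In Ishikawa, ID3 changed at 2 h by -0.84 in cells with and -0.67 in cells without such a UMI, and ID1 by -0.70 and -0.67. In T-47D, BAMBI changed at 2 h by -0.67 and -0.88 and BMP4 by -0.84 and -0.70. ID1 in T-47D, called at -0.60 over all cells, was at -0.64 in cells with and -0.57 in cells without, the latter short of the limit.

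The rest of the pathway was described from lists of its ligands, receptors, transducers, inhibitors and targets. Of 100 listed genes, 37 passed 10 CPM in Ishikawa and 38 in T-47D. The receptors and the transducing SMADs were not called in either line at any time, with 2 and 4 usable receptors and 4 and 4 usable SMADs. BMPR2, the type II BMP receptor and the listed receptor with most UMIs, stood at 34.6 to 39.1 CPM in Ishikawa and at 29.2 to 34.2 CPM in T-47D. SMAD5, the transducer with most UMIs, stood at 48.7 to 51.8 and 44.5 to 47.6 CPM. The single usable ligand, GDF11, was not called in either line.

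Among the intracellular inhibitors, TOB1, an antiproliferative protein that binds SMADs, rose in both lines. It stood at 24.8, 56.6, 26.9 and 25.9 CPM in Ishikawa, called higher at 2 h (log2 change 1.16) and close to 0 h afterwards (0.11 and 0.06). In T-47D it stood at 128, 225, 194 and 204 CPM, called higher at all 3 times (0.81, 0.60 and 0.68). It was the only one of 9 usable inhibitors called in Ishikawa, where 0.786% of all genes were called higher at 2 h, and of 8 in T-47D, where 1.22% to 2.34% were called higher at the 3 times. Of 5 usable secreted antagonists in each line, NBL1 alone was called, in T-47D at 8 h (9.68 CPM at 0 h, log2 change 0.98, against 2.34% of genes higher), and it passed the minimum through its later pools.

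The list of other targets held genes that are not specific to BMP, HES1 and ZNF503 among them. It was chosen with earlier results of these data known, so its counts are descriptions and no independent support. In T-47D, 4 of its genes passed the minimum, and 3 of them were called lower at 2 h and at 8 h and 2 at 4 h, against 0.417%, 0.726% and 0.363% of all genes. The median log2 change of the 4 was -0.70, -0.60 and -0.75, beside 0.01 or less in size for all genes. MSX2, a homeobox target of BMP, stood at 76.3, 46.8, 56.6 and 49.9 CPM (-0.69, -0.42 and -0.60). HES1, a repressor that is foremost a Notch target, stood at 153, 85.9, 85.7 and 82.2 CPM (-0.83, -0.83 and -0.89). The zinc-finger gene ZNF503 stood at 17.9, 10.6, 10.1 and 7.35 CPM. It passed the minimum only through its 0-h pool, where it was highest, so its place in the counts and medians above depends on that pool. GATA3 was the exception, at 518, 444, 469.7 and 509 CPM. In Ishikawa, 0 of 3 usable genes of the list were called, with a median log2 change of -0.32, -0.07 and 0.02. HES1 stood there at 213, 157, 168 and 208 CPM (-0.43, -0.34 and -0.03), ZNF503 at 14.2, 11.3, 13.5 and 14.5 CPM, and the homeobox gene MSX1 at 274, 392, 340.0 and 349 CPM (0.51, 0.31 and 0.35).

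**Figure D5:**
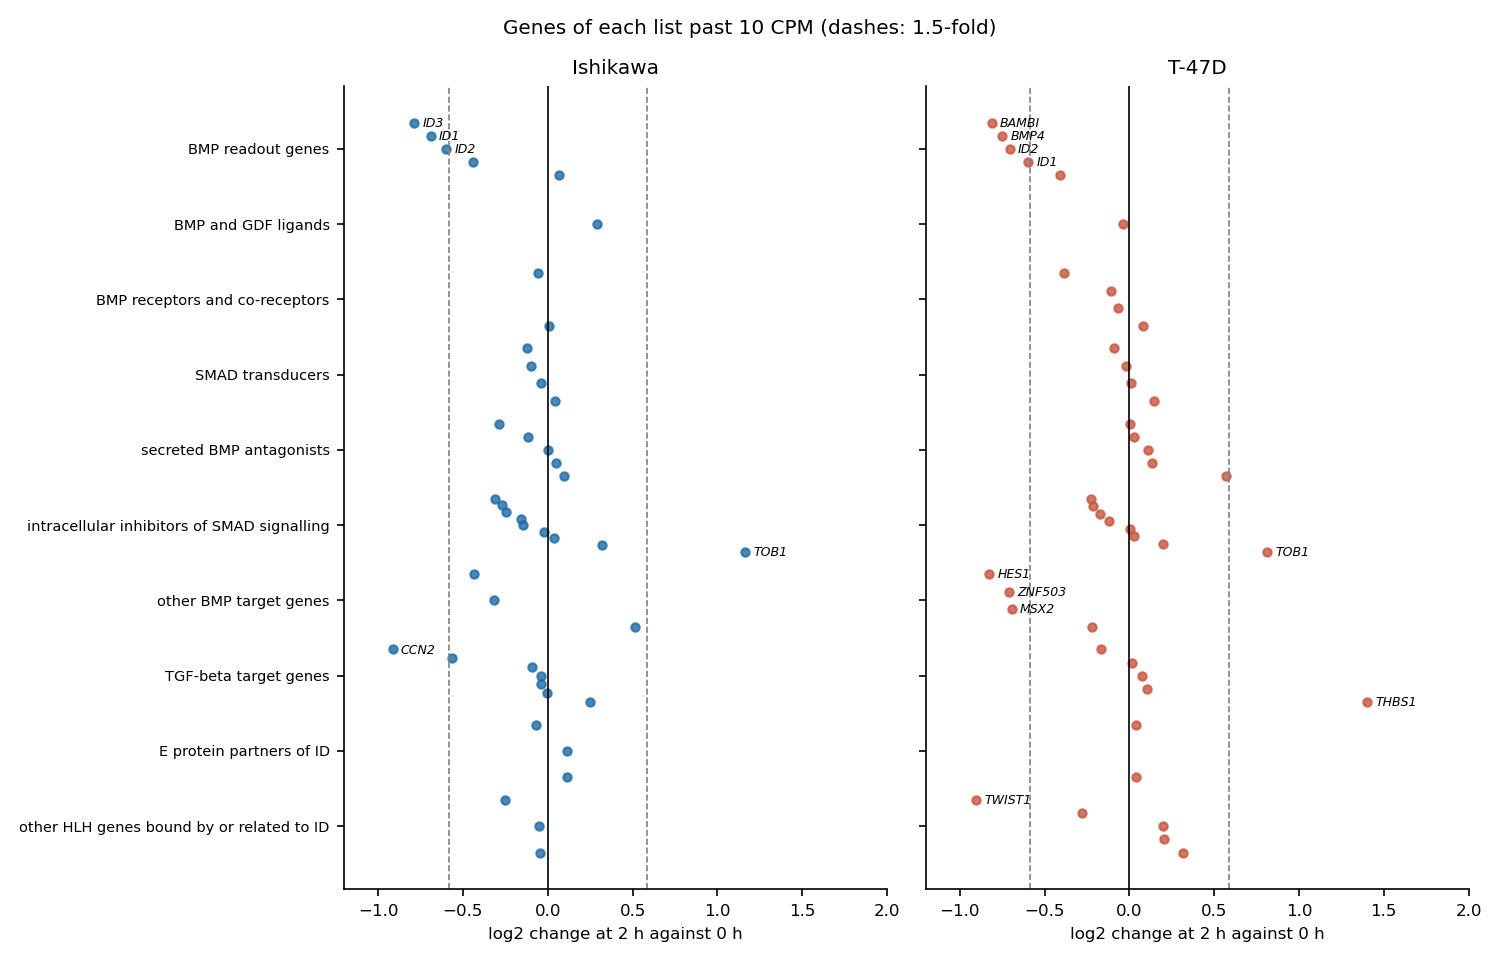
Log2 change at 2 h against 0 h of each gene past 10 CPM, by list (rows), in Ishikawa (left) and T-47D (right); dashed lines mark 1.5-fold and genes beyond them are named. Receptors and transducing SMADs lie around 0, TOB1 lies above the limit in both lines, and HES1, MSX2 and ZNF503 lie below it in T-47D.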

How the data were processed

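Droplet scRNA-seq (10x Genomics 3' chemistry) was analysed from 2 gene expression libraries, and the 2 MULTI-seq barcode libraries entered through the deposited assignment of cells to time points. The deposited matrices hold UMI counts per gene and cell, which the authors made with Cell Ranger 3.1.0 (hg38, per the submitters' processing notes). Cells with a single time point were filtered as in the study's methods: above 8500 and under 35000 UMIs, above 2700 and under 6000 genes and under 7% mitochondrial UMIs in Ishikawa, and 7500, 40000, 1500, 6000 and 20% in T-47D. Barcodes assigned as doublets (1906 and 1442) were left out, and doublets within a time point could not be marked. Counts were summed per line and time, scaled to CPM and compared as log2((CPM + 1)/(CPM at 0 h + 1)), with exact Poisson, conditional ratio and Clopper-Pearson 95% intervals. Genes called changed had a mean of at least 10 CPM and a change of at least 1.5-fold. No test was used, since each line and time point was 1 culture.

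For shares, variation and co-expression, cells were thinned without replacement to the 10th percentile of depth of their line, and shallower cells were left out. For the rho compared over time, the same number of thinned cells was drawn from each pool of a line. Named were all 10 genes, the called and the most abundant genes of each pathway list, and for each of the 10 genes at 50 CPM or more at 0 h the 3 genes with the highest rho. The genes and lists were chosen with earlier results of these data known. Promoters came from RefSeq (GRCh38.p14), where 9 of 10 genes had an entry. Calls and intervals were tested on simulated Poisson counts, which hold no variation between cells beyond counting. Python 3.11.15, numpy 2.4.6, scipy 1.17.1 and pandas 2.3.3 were used. Alternatives were TMM and median-of-ratios scaling, pool totals without reporters, the mean over cells, other pseudocounts, folds and minimums, other cell filters and no thinning.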

Additional observations from a re-analysis of the deposited data

Results flagged for a closer look

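Some genes of the pathway lists had opposite signs in the lines, with both counting intervals off 1. The difference between lines was not tested, since each line and time point was 1 culture, and each change was short of the 1.5-fold limit. SKIL, a corepressor of SMADs, was at 0.35 in Ishikawa and -0.29 in T-47D at 4 h and at 0.43 and -0.16 at 8 h, on the log2 scale. FSTL3, a follistatin-like antagonist, was at 0.30 and -0.23 at 4 h and at 0.22 and -0.22 at 8 h. TWIST1, a helix-loop-helix factor, was at 0.29 in Ishikawa and -0.45 in T-47D at 8 h. HES4 was at -0.15 in Ishikawa and 0.16 in T-47D at 4 h and at -0.11 and 0.15 at 8 h, and HES6 at -0.25 and 0.20 at 2 h. Of the 10 BMP readout genes, 0 met this condition.

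The Ishikawa matrix held a GFP feature that T-47D lacked, and it took 4.67%, 3.17%, 3.95% and 4.10% of the pool's UMIs at 0, 2, 4 and 8 h.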

How the results depend on the processing

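No paired analysis was possible because each line and time point was 1 culture, and for the same reason no replicate could be left out. Of the alternative values of the counts of called genes and of the rho of ID1 with ID3, 189 moved little, the 19 given here moved more, and 0 changed direction. For genes lower in Ishikawa at 2 h (3), every assigned cell gave 1, a 2-fold limit 0 and no minimum 5. At 4 h (0), a fold limit nearer to 1 gave 3 and no minimum 1, and at 8 h (0) no minimum gave 1. For genes lower in T-47D at 2 h (4), a pseudocount of 5 gave 2, a 2-fold limit 0 and a minimum of 50 CPM 2. At 4 h (2), the lower fold limit gave 5, a 2-fold limit 0 and a minimum of 50 CPM 1. At 8 h (2), these gave 4, 0 and 1, and cells under 5% mitochondrial UMIs, a limit chosen after seeing the data that left 45 cells at 8 h, gave 4. No minimum gave 1 gene higher in T-47D at 8 h (0). The shares of all genes given above hold for the main settings only. Shares under the other settings are not given here, so these counts cannot be set against them. Without thinning, the T-47D rho was 0.547 at 0 h (0.467 with it) and 0.478 at 8 h (0.376), where depth still varied between cells. BAMBI in T-47D lost its 4-h call in cells under 5% mitochondrial UMIs (-0.48), where ID2 and ID3 gained calls at 4 and 8 h. ID2 in Ishikawa was called under 6 of 12 settings. The 0-h pool stands in every change of a line, so a shift of that 1 culture would move all 3 changes. Genes under 10 CPM rest on at most 318 UMIs per pool, and their ratios have wide intervals.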

Other observations

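The related TGF-beta branch signals through SMAD2 and SMAD3, and 2 genes of its target list were called. THBS1, a matrix protein that activates latent TGF-beta, stood at 38.2, 45.6, 66.7 and 88.7 CPM in Ishikawa at 0, 2, 4 and 8 h (log2 change 0.25, 0.79 and 1.19) and at 8.47, 24.1, 27.3 and 29.6 CPM in T-47D (1.40, 1.58 and 1.69), where it passed the minimum through its later pools. CCN2, connective tissue growth factor, stood at 45.1, 23.5, 52.8 and 54.3 CPM in Ishikawa, lower at 2 h (-0.92) and above 0 h later, and gave 2 UMIs in all in T-47D. These were the called genes among 7 usable TGF-beta targets in Ishikawa, 1 at each time, and 5 in T-47D, again 1 at each time. Of all genes, 0.659% were called lower in Ishikawa at 2 h and 0.634% and 0.812% higher at 4 and 8 h, and in T-47D 1.22%, 1.33% and 2.34% were called higher.

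The E proteins, the partners that ID proteins bind, were not called at any time, with 3 usable in Ishikawa and 2 in T-47D. TCF3 stood at 25.0 to 29.4 CPM in Ishikawa and 16.3 to 17.0 CPM in T-47D. Of the other helix-loop-helix genes, TWIST1 in T-47D was at 15.5, 7.80, 11.2 and 11.1 CPM, called lower at 2 h (-0.90, against 0.417% of all genes), and BHLHE40 was called higher there at 8 h (11.7 to 18.6 CPM, 0.63, against 2.34%), whereas 0 of 3 were called in Ishikawa.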
